A study of Homo sapiens with 8 samples.

Results

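This account follows 10 genes of the integrated stress response in THP-1 cells, a human acute monocytic leukemia line, among the 60664 genes of the deposited expression table. They are the transcription factors ATF4, ATF3, ATF5 and DDIT3 (CHOP) and the effectors TRIB3, CHAC1, ASNS, DDIT4, SESN2 and INHBE. The members were named by gene symbol, and the set was chosen by measured values, because the response of INHBE to decitabine (DAC) differs strongly between the 2 cell populations. INHBE is therefore described without a test throughout, and so is the difference between the 2 DAC responses in every member. The other members were also chosen with earlier results of these data known, so their counts and p-values are not independent of these data. Parental and DAC-resistant THP-1 cells were each given DMSO or 1 µM DAC for 6 days, and 2 libraries were sequenced for each of the 4 groups. DAC is a cytidine analogue that is built into DNA and lowers its methylation. The resistant population was derived from the same line by repeated exposure to DAC and was kept free of the drug before the experiment. No source used here gives the number of derivations, so the libraries labelled resistant are taken to stand for 1 derived population. The labels call the libraries biological replicates and do not say how the cultures were separated, so p-values measure the spread between these libraries, which may be technical.

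The integrated stress response is a signalling pathway in which kinases phosphorylate the translation factor eIF2 when a cell lacks amino acids, holds unfolded proteins in the endoplasmic reticulum, lacks heme or meets double-stranded RNA. General translation then slows, while the ATF4 mRNA, which carries upstream open reading frames in its leader, is translated more. ATF4 is a basic leucine zipper (bZIP) factor that turns on genes for amino acid synthesis, amino acid import and tRNA charging, as well as further factors such as ATF3, ATF5 and DDIT3, which shape survival or death under lasting stress. Levels of mRNA do not show how much ATF4 protein was made, and none was measured here.

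Libraries held 28717826 to 33416752 recovered reads on genes, with both parental DAC libraries at the low end. Levels are FPKM, read numbers set relative to gene length and library total, so that they can be compared between genes. Of the 10 members, 9 reached at least 1 FPKM in at least 2 libraries and were fitted together with all other genes that did (14899 in all). ASNS did not, and its values come from the fit of all genes above 0. Fold changes are differences of log2(FPKM + 1) in limma, given ± SE with n = 2 per group, and a gene was called when its unadjusted p was at most 0.01 and its log2 fold change at least 1 in size. The Benjamini-Hochberg method was used to adjust p-values, over every gene in the fit. Of the 14899 genes tested, 6.66% were called higher and 2.64% lower with DAC in parental cells, and 0.114% higher and 0.121% lower with DAC in resistant cells. DAC-resistant cells against parental cells had 4.45% called higher and 4.28% lower in DMSO, and 5.29% higher and 9.17% lower in DAC. Comparisons with a group in common share its libraries and are not independent.

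Of 10 monocytic marker genes, 10 reached 1 FPKM in parental DAC libraries, 9 in each DMSO group and 8 in resistant DAC libraries. In resistant against parental cells 3 of the 10 were called lower in DMSO and 5 in DAC, with medians of -0.57 and -1.32. The 10 include CD68, which was not called and would not have passed the filter without the parental DAC libraries. Their summed level was 283 to 294 FPKM in parental DMSO, 365 to 375 in parental DAC, 244 to 250 in resistant DMSO and 236 to 251 in resistant DAC libraries. The immunoglobulin light chain gene IGKC, singled out after its values were seen, was at 0.603 to 1.32 FPKM in the parental libraries and at 0.727 in resistant DMSO replicate 1, and at 27.6, 48.4 and 28.5 FPKM in the other 3 resistant libraries. The summed level of 10 plasma and B cell markers was 8.72 to 14.9 FPKM in parental libraries and 9.46 to 69.5 in resistant ones. Of 5 T cell markers, TRAC alone reached 1 FPKM, in the parental DAC libraries at 3.31 and 2.87. The other 4, named after their values were seen, were low: CD3D and CD3G were above 0 in parental DAC libraries alone, CD3E in those and in resistant DMSO libraries, and CD8A was at 0 in parental DAC and at 0.0535 to 0.229 FPKM in the 4 resistant libraries. Whether these other transcripts have a part in the member results was not tested, and in bulk RNA fewer cells of a type and less RNA per cell cannot be told apart.

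The start regions of the members were searched for the composite C/EBP-ATF element that ATF4 and its partners bind, as the letters TGATGNAA on either strand. RefSeq windows that reach from 250 bases before to 50 bases after a start (assembly GRCh38.p14) were given for 9 of the 10 members, in 17 windows. INHBE had no entry. A match was found in 3 of the 17 windows, and in 3.62% of all 35116 windows of this length. All 3 matched stretches, in windows of CHAC1, ASNS and ATF3, are shown. Each is written 5′ to 3′ on the gene's strand, with the matched letters in capitals:
CHAC1 (chr15:40953251-40953280, plus strand): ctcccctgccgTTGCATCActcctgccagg
ASNS (chr7:97872458-97872487, minus strand): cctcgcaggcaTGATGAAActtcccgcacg
ATF3 (chr1:212565157-212565333, plus strand): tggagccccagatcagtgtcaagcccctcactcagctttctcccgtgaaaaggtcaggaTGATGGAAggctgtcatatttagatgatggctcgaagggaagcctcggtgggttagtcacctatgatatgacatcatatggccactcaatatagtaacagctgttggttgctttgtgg

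The match in CHAC1 lies on the minus strand, 209 to 202 bases before its start. In ASNS the match lies 68 to 61 bases before the start within the window chr7:97872359-97872658. In ATF3 it lies 191 to 184 bases before the start within the window chr1:212565157-212565456. These are RefSeq starts, and they differ from the ends of the gene spans given below. The matches of CHAC1 and ASNS fall in exons of other annotated transcripts (GENCODE release 44). The palindrome TGACGTCA, the cAMP response element, was in none of the 17 windows and in 1.85% of all windows. Since DAC lowers the methylation of DNA, CG dinucleotides were counted in the same windows. There were 36 to 38 in the 3 TRIB3 windows, 30 in that of DDIT4, 24 to 27 in those of ASNS, DDIT3, SESN2, CHAC1 and ATF4, 3, 21 and 14 in those of ATF5, and 4 and 1 in those of ATF3. The median over all windows was 14, with quartiles of 4 and 28. Methylation was not measured in these libraries.

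ATF4 (chr22:39519695-39522683 on GRCh38, plus strand) had the highest level of the 10 genes in every group. It stood at 206 and 212 FPKM in parental DMSO, 108 and 109 in parental DAC, 243 and 235 in resistant DMSO and 287 and 285 in resistant DAC libraries. The 4 groups did not overlap, with parental DAC cells lowest and resistant DAC cells highest. The parental mean with DAC was 51.8% of that with DMSO (log2 difference -0.94 ± 0.03, adjusted p = 6.27e-07), just short of the fold a call needs. In resistant cells it was 1.20 times the DMSO level (0.26 ± 0.03, adjusted p = 0.00252). DAC-resistant cells held 2.65 times as much ATF4 mRNA as parental cells in DAC (1.40 ± 0.03, adjusted p = 1.28e-07), which was called, and 1.14 times as much in DMSO.

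**Figure D1:**
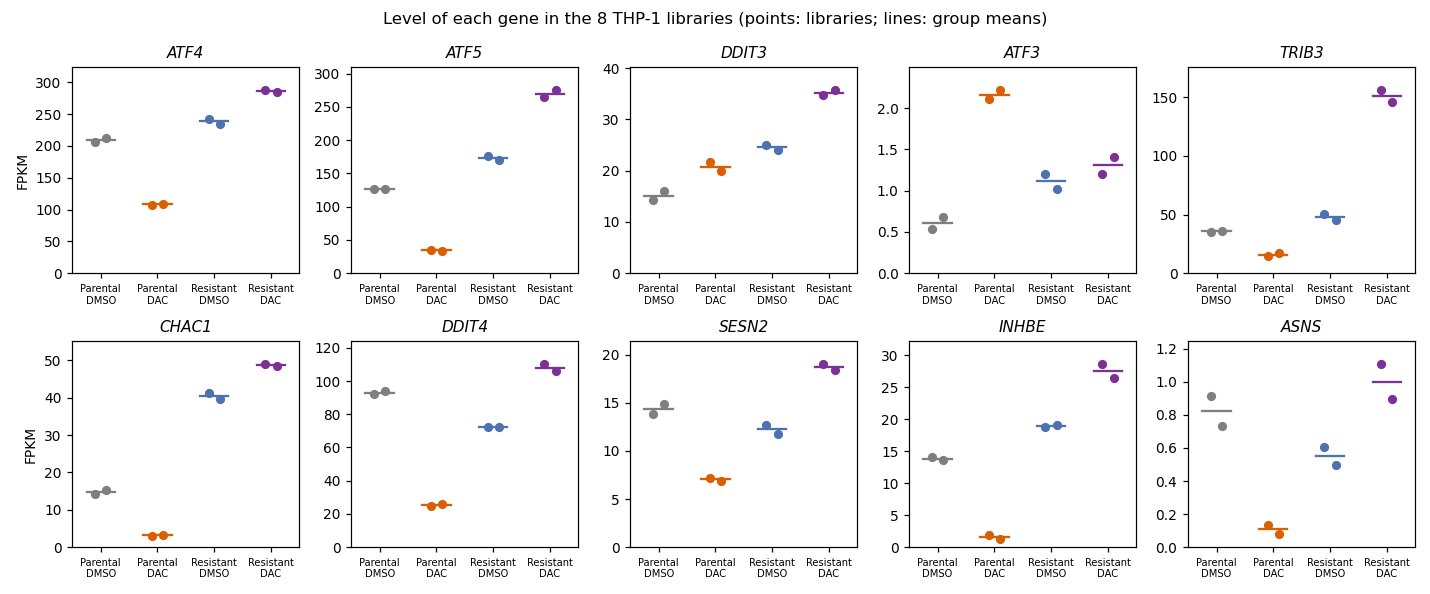
Level of each of the 10 genes in FPKM (vertical axis, linear and from 0, own scale per panel) in the 4 groups (horizontal axis); points are the 2 libraries of a group and lines their means. In 8 panels the parental DAC libraries are the lowest, while DDIT3 and ATF3 were lowest in parental DMSO; ATF3 alone was highest in parental DAC, at 2.11 and 2.22 FPKM.

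ATF5 (chr19:49928702-49933935, plus strand), a bZIP factor whose own mRNA is also translated under eIF2 phosphorylation, had larger fold changes than ATF4 in each of the 4 comparisons. It was at 127 FPKM in both parental DMSO libraries and at 34.5 and 34.1 in the parental DAC libraries. In resistant cells it was at 176 and 170 FPKM with DMSO and at 265 and 275 with DAC. ATF5 fell 3.70-fold with DAC in parental cells (-1.86 ± 0.03, adjusted p = 8.96e-08). In resistant cells its DAC level was 1.56 times the DMSO level (0.64 ± 0.03, adjusted p = 0.0003), with no overlap but under the fold for a call. In DAC, the resistant libraries held 7.87 times the parental level (2.94 ± 0.03, adjusted p = 6.85e-08). In the annotation, 19.5% of the exon bases of ATF5 lie opposite exons of NUP62, at 9.59 to 20.8 FPKM over the libraries. A further gene, IL4I1, at 3.57 to 50.6 FPKM, lies opposite 2.59% of them. No source used here states whether reads were counted by strand, so the level of ATF5 is uncertain.

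DDIT3 (chr12:57516588-57521737, minus strand) encodes CHOP, the bZIP factor tied to cell death in prolonged stress, and it did not share the fall. Its levels were 14.2 and 16.1 FPKM in parental DMSO, 21.7 and 19.9 in parental DAC, 25.1 and 24.0 in resistant DMSO and 34.8 and 35.7 in resistant DAC libraries. Each group lay above the one before it without overlap. DAC shifted it by 0.44 ± 0.07 on the log2 scale in parental cells (adjusted p = 0.00153) and 0.50 ± 0.07 in resistant cells (adjusted p = 0.00778), neither of which reached the fold for a call. The 2 DAC responses of DDIT3 thus differed by 0.07 ± 0.09. Exons of MARS1, a tRNA synthetase gene on the opposite strand, cover 27.2% of the exon bases of DDIT3. MARS1 was lower with DAC in parental cells (-0.71, adjusted p = 9.44e-06, from 42.2 to 25.4 FPKM), the opposite direction to DDIT3. Between the populations both were higher in resistant cells, MARS1 by 0.65 in DMSO and 1.25 in DAC and DDIT3 by 0.67 and 0.73.

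ATF3 (chr1:212565334-212620777, plus strand), an early stress-induced bZIP repressor, was low in every library, with 68 to 246 recovered reads. It was at 0.531 and 0.686 FPKM in parental DMSO and at 2.11 and 2.22 in parental DAC libraries. In resistant cells it was at 1.21 and 1.02 FPKM with DMSO and at 1.20 and 1.41 with DAC. The parental DAC level was 3.55 times the DMSO level, and on the log2(FPKM + 1) scale the difference was 0.98 ± 0.10 (adjusted p = 2.48e-04), just under the fold for a call. That scale compresses low levels, and with a pseudocount of 0.1 the difference was 1.68. In resistant cells the groups overlapped (0.13 ± 0.10, 95% interval -0.12 to 0.37). ATF3 was the one member at a lower level in resistant than in parental cells under DAC (-0.46 ± 0.10, adjusted p = 0.00632).

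TRIB3 (chr20:362835-397559, plus strand) encodes a pseudokinase that binds ATF4 and DDIT3 and restrains their activity. Its levels were 35.3 and 35.9 FPKM in parental DMSO, 14.7 and 16.8 in parental DAC, 50.5 and 45.5 in resistant DMSO and 156 and 146 in resistant DAC libraries. It fell 2.26-fold with DAC in parental cells (-1.13 ± 0.07, adjusted p = 3.13e-05) and rose 3.15-fold in resistant cells (1.63 ± 0.07, adjusted p = 0.0003). No other member but TRIB3 was called in resistant cells. TRIB3 was 1 of 17 genes called higher there, of which 3 were protein-coding, the others being RGS16 and ORM1. Immunoglobulin genes were also among the 17, ENSG00000211677 (4.02), ENSG00000211679 (3.82), ENSG00000211895 (2.12) and ENSG00000211666 (1.71). These genes, RGS16 and ORM1 were named after their values were seen. The count of 17 became 46 with TPM, 56 with a pseudocount of 0.1 and 37 with voom. It was 25 to 33 when 1 resistant library was left out. The resistant DMSO library with little IGKC, replicate 1, gave the higher of the 2 TRIB3 levels. Without that library the log2 fold change was 1.71, and without the other one 1.56.

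CHAC1 (chr15:40952962-40956512, plus strand) encodes a gamma-glutamylcyclotransferase that degrades glutathione. It was at 14.3 and 15.2 FPKM in parental DMSO, 2.96 and 3.26 in parental DAC, 41.3 and 39.8 in resistant DMSO and 49.0 and 48.5 in resistant DAC libraries. Among the members tested it alone was called between the cell populations in DMSO, where it rose 2.75-fold in resistant cells (1.40 ± 0.05, adjusted p = 2.65e-06). It fell 4.73-fold with DAC in parental cells (-1.94 ± 0.05, adjusted p = 5.11e-07). In resistant cells the DAC level was 1.20 times the DMSO level (0.26 ± 0.05, adjusted p = 0.0217). The groups in DAC lay 15.7-fold apart (3.60 ± 0.05, adjusted p = 8.30e-08).

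DDIT4 (chr10:72273919-72276036, plus strand) and SESN2 (chr1:28259518-28282491, plus strand) encode inhibitors of the growth kinase complex mTORC1, REDD1 and sestrin 2. DDIT4 was at 92.1 and 93.8 FPKM in parental DMSO, 24.7 and 25.8 in parental DAC, 72.2 and 72.4 in resistant DMSO and 110 and 106 in resistant DAC libraries. DDIT4 fell 3.69-fold with DAC in parental cells (-1.84 ± 0.03, adjusted p = 1.11e-07). In resistant cells its DAC level was 1.50 times the DMSO level (0.57 ± 0.03, adjusted p = 5.39e-04). These 2 genes and ASNS were the members with a lower mean in resistant than in parental cells in DMSO, DDIT4 by 0.36 on the log2 scale.

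SESN2 was at 13.9 and 14.9 FPKM in parental DMSO, 7.23 and 6.84 in parental DAC, 12.7 and 11.8 in resistant DMSO and 19.0 and 18.4 in resistant DAC libraries. No group overlapped another. Its DAC response was -0.94 ± 0.05 in parental cells (adjusted p = 1.86e-05) and 0.57 ± 0.05 in resistant cells (adjusted p = 0.00252), both under the fold for a call. In DAC it rose 2.66-fold from parental to resistant cells (1.29 ± 0.05, adjusted p = 2.65e-06).

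INHBE (chr12:57452323-57459280, plus strand) encodes the beta E subunit of inhibins and activins, secreted factors of the TGF-beta family. It was at 14.0 and 13.7 FPKM in parental DMSO libraries and at 1.89 and 1.33 in parental DAC libraries, from 111 to 158 reads. In resistant cells it was at 18.8 and 19.1 FPKM with DMSO and at 28.6 and 26.4 with DAC, the latter from 2467 and 2781 reads. The parental DAC mean was 11.6% of the parental DMSO mean, the smallest share among the members that passed the filter, while the resistant DAC mean was 1.45 times the resistant DMSO mean. Its response to DAC on the log2 scale was -2.52 ± 0.10 in parental and 0.52 ± 0.10 in resistant cells, so the responses differed by 3.04 ± 0.14. Resistant cells in DAC held 17.1 times the parental level. Exons of ENSG00000287200, at 0.356 to 1.17 FPKM on the opposite strand, cover 16.4% of the exon bases of INHBE. These are the values for which the set was chosen, and no test was made of them.

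ASNS (chr7:97851677-97872542, minus strand), asparagine synthetase, is a textbook ATF4 target, but its counted level was low. It was at 0.915 and 0.734 FPKM in parental DMSO, 0.134 and 0.0818 in parental DAC, 0.608 and 0.496 in resistant DMSO and 1.11 and 0.894 in resistant DAC libraries, from 11 to 173 reads. The annotation gives 49.3% of its exon bases to a second gene on the same strand, ENSG00000284707, so reads there may not have been assigned to either and its level is uncertain. The parental DAC mean was 13.1% of the DMSO mean, and the difference was -0.72 ± 0.11 on the log2 scale (adjusted p = 0.00703), which the added 1 FPKM compresses. With a pseudocount of 0.1 that value was -2.16. In resistant cells the difference with DAC was 0.36 ± 0.11 (95% interval 0.08 to 0.65, adjusted p = 0.253).

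**Figure D2:**
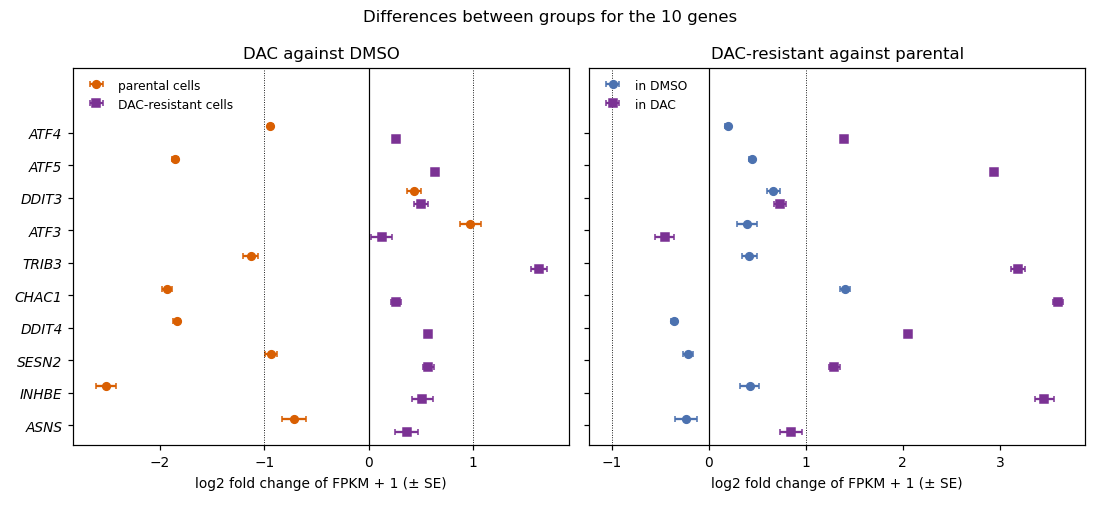
Log2 fold change of FPKM + 1 (horizontal axis) with its standard error for the 10 genes (rows), DAC against DMSO in parental (circles) and DAC-resistant cells (squares) on the left, and DAC-resistant against parental cells in DMSO (circles) and in DAC (squares) on the right; dotted lines mark a log2 fold change of 1 in either direction. On the left 8 genes have parental values below 0, from -2.52 for INHBE to -0.72 for ASNS, and resistant values above it, from 0.26 for ATF4 to 1.63 for TRIB3, whereas DDIT3 and ATF3 lie above 0 in both.

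Counted over the 8 members tested, which leaves out INHBE and ASNS, 4 were called lower with DAC in parental cells (ATF5, CHAC1, DDIT4 and TRIB3) and 0 higher by limma, beside the 2.64% and 6.66% of all genes. At an unadjusted p under 0.05 there were 6 lower and 2 higher, a level that 26.2% and 36.3% of all genes passed in these directions, and limma on recovered reads (voom) called 1 higher, ATF3. In resistant cells 1 was called higher with DAC and 0 lower, with 7 higher and 0 lower at an unadjusted p under 0.05 (14.4% and 12.6% of all genes) and 0 lower by voom. The median log2 fold change of the 8 genes was -1.04 in parental and 0.54 in resistant cells, beside 0.06 and 0.01 over all genes tested. Between the populations in DMSO 1 member was called higher and 0 lower, with 6 and 2 at an unadjusted p under 0.05 (33.7% and 28.2% of all genes) and 0 lower by voom. In DAC 6 were called higher and 0 lower, with 7 and 1 at an unadjusted p under 0.05 (33.3% and 36.6% of all genes) and 0 lower by voom. The median was 0.41 in DMSO and 1.73 in DAC, beside 0.02 and -0.03 over all genes.

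The differences between the 2 DAC responses ran from 3.04 ± 0.14 in INHBE over 2.76 ± 0.10 in TRIB3, 2.50 ± 0.04 in ATF5, 2.41 ± 0.04 in DDIT4, 2.20 ± 0.07 in CHAC1, 1.51 ± 0.08 in SESN2 and 1.20 ± 0.04 in ATF4 to 1.08 ± 0.16 in ASNS. Next came DDIT3 at 0.07 ± 0.09, and ATF3 stood at -0.85 ± 0.14. In TRIB3 the larger share came from resistant cells (1.63 against -1.13), and in INHBE, ATF5, DDIT4 and CHAC1 from parental cells. Within the groups, DDIT3, CHAC1, SESN2 and INHBE were neighbours in parental DMSO cells at means of 15.1, 14.7, 14.4 and 13.9 FPKM, with libraries that overlapped from each to the next. In resistant DAC cells the same genes were apart, CHAC1 at 48.8, DDIT3 at 35.2, INHBE at 27.5 and SESN2 at 18.7 FPKM. The order above them was ATF4, ATF5, DDIT4, TRIB3 in every group but these: in parental DAC cells DDIT3 stood before TRIB3, and in resistant DAC cells TRIB3 stood before DDIT4.

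INHBE and DDIT3 lie 57307 bases apart on chromosome 12, with GLI1, ARHGAP9 and MARS1 between them. INHBC, the activin gene just upstream of INHBE, was at 0.0114 to 0.479 FPKM in the 8 libraries, lowest in parental DAC cells as INHBE was. GLI1, which starts just past the end of INHBE on the same strand, was at 0.77 ± 0.05 FPKM (SD, n = 2) in parental DMSO and 0.88 ± 0.20 in parental DAC cells, which differed by 0.09 on the log2 scale with an adjusted p of 0.512. ARHGAP9, a GTPase-activating protein, was at 28.2 and 24.5 FPKM in parental DMSO and DAC cells and at 8.86 and 9.18 in resistant cells. MBD6, on the far side of DDIT3, was at 10.1 to 13.1 FPKM in all 8 libraries. MARS1 was at 42.2 FPKM in parental DMSO and 25.4 in parental DAC cells, its lowest group, and at 66.6 and 61.7 in resistant cells.

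Likeness of profile was measured as the root mean square difference of log2(FPKM + 1), centred on each gene's mean, over the 8 libraries, and is given as a description. The 5 genes nearest to INHBE were PSAT1 (0.18), the member ATF5 (0.28), BCAT1 (0.36), the member CHAC1 (0.38) and ENSG00000253140 (0.42). PSAT1, phosphoserine aminotransferase of the serine pathway, was at 260 and 262 FPKM in parental DMSO, 36.3 and 39.9 in parental DAC, 392 and 400 in resistant DMSO and 516 and 509 in resistant DAC libraries. BCAT1, the cytosolic branched-chain aminotransferase, had group means of 36.5, 9.94, 55.7 and 61.9 FPKM in the same order. DDIT4 was the 24th nearest gene to INHBE, TRIB3 the 41st, ATF4 the 138th and SESN2 the 289th of the genes tested, while DDIT3 and ATF3 came at places 3665 and 12092. Nearest to the mean profile of the 9 tested members were VEGFA (0.09), WARS1 (0.10), SLC6A9, TCEA1 and SLC43A1 (0.11 each), of which TCEA1, a transcription elongation factor, is in none of the lists below.

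**Figure D3:**
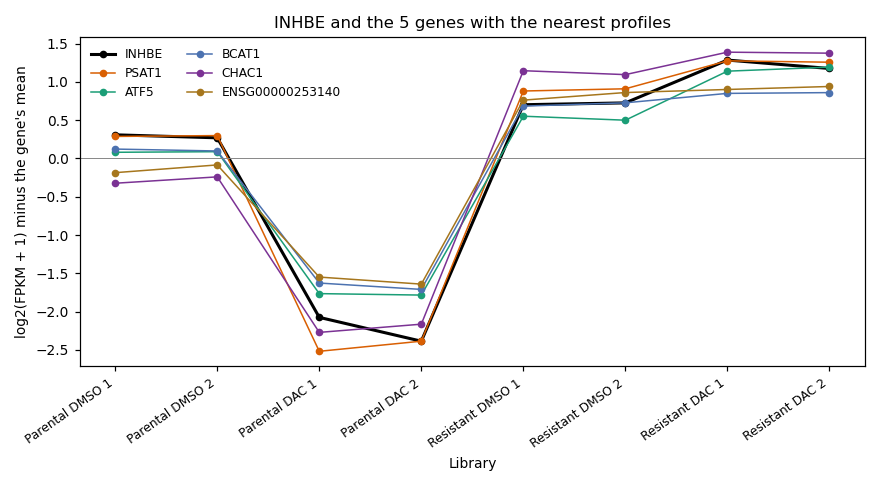
Log2(FPKM + 1) minus the gene's own mean (vertical axis) in each of the 8 libraries (horizontal axis) for INHBE (thick black line) and the 5 genes with the nearest profiles. INHBE lies at 0.31 and 0.27 in parental DMSO, at -2.08 and -2.39 in parental DAC, and at 1.28 and 1.17 in resistant DAC libraries, and PSAT1 follows it within 0.18 on average (root mean square).

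Other genes of the pathway were taken from lists written from general knowledge, with earlier results of these data known. Their counts and medians are therefore not independent of these data. Over all genes tested, 6.66% were called higher and 2.64% lower with DAC in parental cells, with a median of 0.06. Of 12 amino acid synthesis genes, all tested, 7 were called lower with DAC in parental cells, with a median log2 fold change of -1.03, and each of the 12 had a fold change below 0 under every alternative in which it was fitted. PSAT1 fell by 2.75 on the log2 scale (adjusted p = 8.96e-08). ALDH1L2, a mitochondrial folate enzyme, fell by 2.56 (35.9 and 34.5 FPKM with DMSO, 4.80 and 5.52 with DAC). PHGDH, the first enzyme of serine synthesis, fell by 1.98 and the serine hydroxymethyltransferase SHMT2 by 1.53. In resistant cells the median was 0.17, and PHGDH was at 58.0 FPKM in both DMSO libraries and at 55.1 and 54.6 with DAC. Resistant cells in DAC had 10 of the 12 called higher than parental cells in DAC, with a median of 1.70.

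Of 10 amino acid transporters tested, of 11 listed, 2 were called lower with DAC in parental cells, the cystine carrier SLC7A11 (-1.06) and the neutral amino acid carrier SLC43A1 (-1.05). The median was -0.58, and over the alternatives 1 to 4 were called lower, 1 without parental DAC replicate 2 and 4 with quantile or upper-quartile scaling. SLC7A11 was at 14.5 and 14.8 FPKM in parental DMSO, 6.77 and 6.32 in parental DAC, 24.4 and 24.7 in resistant DMSO and 29.5 and 30.5 in resistant DAC libraries. Resistant cells in DAC had 7 of the 10 called higher. Of 13 tRNA charging genes, all tested, 4 were called lower with DAC in parental cells, YARS1 (-1.40), AARS1 (-1.38), GARS1 (-1.18) and IARS1 (-1.06), the synthetases for tyrosine, alanine, glycine and isoleucine. Their median was -0.71 in parental and 0.07 in resistant cells.

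Of 14 further ATF4 or CHOP targets tested, of 15 listed, 4 were called lower and 1 higher with DAC in parental cells. Over all genes tested, 2.64% were called lower and 6.66% higher. The falls were in ADM2 (-1.69), which encodes a calcitonin family peptide, STC2 (-1.46), a secreted glycoprotein hormone, NUPR1 (-1.09), a stress-induced chromatin protein, and EIF4EBP1 (-1.08), an inhibitor of cap-dependent translation. The rise was in SQSTM1 (1.12), the autophagy receptor p62. Over the alternatives 1 to 3 were called higher, 3 with a pseudocount of 0.1, with TPM and with voom, and 2 without parental DMSO replicate 2 or parental DAC replicate 1. ADM2 had levels of 6.92 and 6.44 FPKM in parental DMSO, 1.44 and 1.32 in parental DAC, 5.16 and 4.64 in resistant DMSO and 8.57 and 8.79 in resistant DAC libraries. The list's median was -0.51 in parental and 0.21 in resistant cells. The 14 include LAMP3, named after its values were seen, which was not called and had 0.21 in resistant cells. It would not have passed the filter without the resistant DAC libraries, where it was at 1.16 and 1.07 FPKM.

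Upstream of ATF4, 15 of 16 genes for eIF2 kinases and eIF2 control were tested. With DAC 2 were called higher in parental cells, beside 6.66% of all genes. The median was 0.07, beside 0.06 over all genes tested. EIF2AK2 encodes PKR, the eIF2 kinase that is switched on by double-stranded RNA and is itself an interferon-stimulated gene. It rose from 16.0 and 15.6 to 52.8 and 52.9 FPKM (1.68, adjusted p = 2.54e-07) and was at 20.3 and 20.6 with DMSO and 17.3 and 18.4 with DAC in resistant cells. PPP1R15A, which encodes the stress-induced subunit GADD34 of the eIF2 phosphatase, rose by 1.06, from 8.34 to 18.4 FPKM on average, and 1 of the 2 calls was lost without parental DMSO replicate 1. The remaining kinase genes are named after their values were seen: EIF2AK1 (-0.27) and EIF2AK4 (-0.59) were not called, and EIF2AK3, at group means of 0.753 to 0.920 FPKM, was not tested. PKR mRNA thus rose in the same libraries in which ATF4 mRNA and most members were lowest.

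The bZIP relatives and partners of ATF4 moved both ways. Of 19 tested, 4 were called higher and 1 lower with DAC in parental cells, beside 6.66% and 2.64% of all genes. The list's median was 0.29. CEBPE, a myeloid factor, rose by 2.53 (1.17 and 1.33 FPKM with DMSO, 12.6 and 11.5 with DAC), and the AP-1 genes FOS, JUN and JUNB by 1.75, 1.74 and 1.26. The fall was in BATF3 (-1.03), a call that was lost without parental DMSO replicate 2 or parental DAC replicate 1, while 2 genes were called lower with quantile or upper-quartile scaling. FOS and JUN were also the bZIP genes called higher in resistant cells in DMSO, by 1.54 and 1.66. Of the 10 monocytic markers 3 were called higher in the same parental DAC libraries, 8 had fold changes above 0 and 2 below 0 (ELANE at -0.39 and CD33 at -0.29, named after their values were seen). The 8 include CD68, which was not called and would not have passed the filter without the parental DAC libraries, where it was at 1.295 and 1.531 FPKM. CD14 rose from 1.45 and 1.58 to 19.0 and 20.8 FPKM and LYZ from 11.4 and 12.6 to 46.7 and 48.9.

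The ATF6 and XBP1 arms of the unfolded protein response, which raise endoplasmic reticulum chaperones, had 17 genes tested. With DAC 1 was called higher in parental cells, beside 6.66% of all genes. It was the chaperone calreticulin gene CALR (1.54), from 211 and 213 to 625 and 614 FPKM. Over the alternatives 1 to 3 were called higher, 3 with a pseudocount of 0.1 and with voom. The list's median was 0.55, against -1.03 for amino acid synthesis genes and 0.06 over all genes tested. Of the 17, 12 were above 0 and 5 below. HSPA5, the chaperone BiP, named here after its values were seen, was at 60.0 and 60.2 FPKM with DMSO and at 111 and 113 with DAC (0.89, adjusted p = 3.88e-07). In resistant cells the median was -0.10, beside 0.01 over all genes tested, with 5 genes above 0 and 12 below. CALR had a log2 fold change of -0.78 there. This arm and the members thus had medians of opposite sign in both populations.

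**Figure D4:**
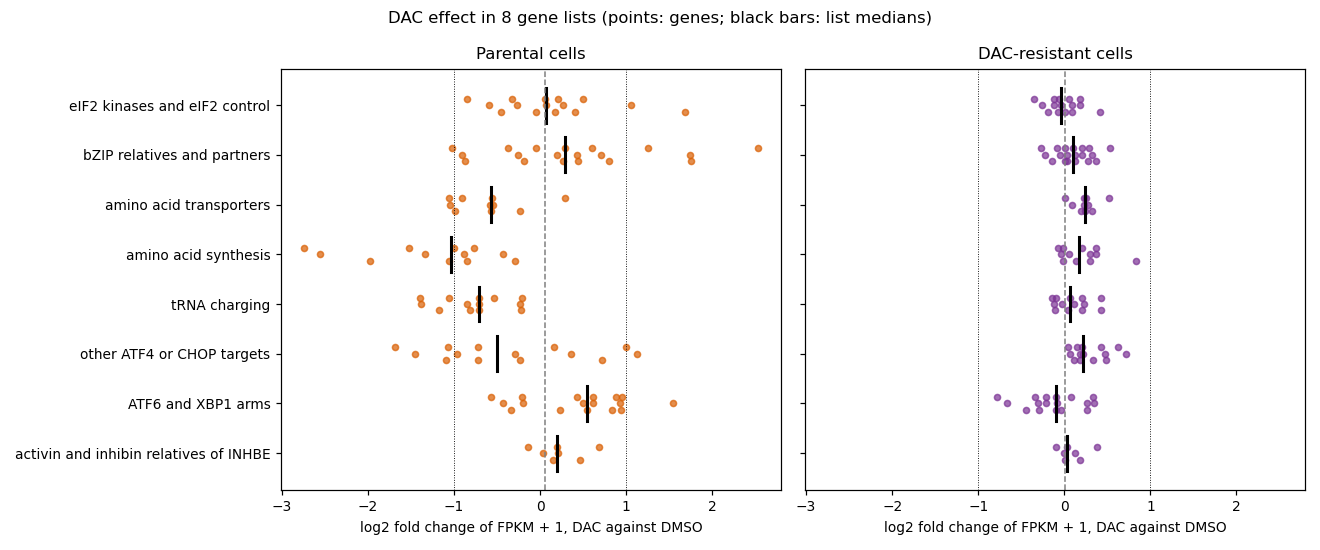
Log2 fold change of FPKM + 1 with DAC (horizontal axis) of each tested gene (points) in 8 lists of related genes (rows) in parental and DAC-resistant cells; black bars are list medians, the dashed line is the median of all genes tested and dotted lines mark 1 in either direction. In parental cells the median is -1.03 for amino acid synthesis and 0.55 for the ATF6 and XBP1 arms; in resistant cells the list medians lie between -0.10 and 0.24.

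Across all 9 lists 113 genes were tested. Counts leave out genes that would not have passed the filter without 1 of the compared groups, DDIT4L in parental cells and INHBA and LAMP3 in resistant cells. With DAC 10 of 112 were called higher and 18 lower in parental cells by limma, beside 6.66% and 2.64% of all genes, and 16 and 21 by voom. At an unadjusted p under 0.05 there were 40 higher and 57 lower, beside 36.3% and 26.2% of all genes. In resistant cells 0 of 111 were called either way by limma, and 1 higher by voom. There 46 were higher and 19 lower at an unadjusted p under 0.05, beside 14.4% and 12.6% of all genes. Of activin and inhibin relatives of INHBE 7 of 11 were tested, INHBA among them, with medians of 0.20 in parental and 0.04 in resistant cells. INHBA, which encodes activin A, was listed at 0 in both parental DMSO libraries, at 0.18 and 0.114 FPKM in parental DAC, 1.15 and 0.976 in resistant DMSO and 0.851 and 1.01 in resistant DAC libraries. It passed the filter through resistant libraries alone, so no test of it between the populations is given.

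Paralogs of 4 members were also measured. TRIB1 rose with DAC in parental cells from 1.75 and 1.61 to 15.0 and 15.3 FPKM (2.59, adjusted p = 1.30e-06) and TRIB2 from 2.02 and 2.25 to 7.42 and 7.78 (1.46, adjusted p = 1.22e-05), where TRIB3 fell. In resistant cells TRIB1 was at 2.89 and 2.77 FPKM with DMSO and at 2.61 and 3.19 with DAC, where TRIB3 rose. DDIT4L was at 0.274 and 0.132 FPKM with DMSO and at 5.22 and 6.27 with DAC in parental cells, where DDIT4 fell. It passed the filter through the parental DAC libraries alone, so no test of it is given. SESN1, SESN3 and CHAC2, named after their values were seen, had fold changes of -0.17, -0.06 and -0.08 there and were not called.

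**Figure D5:**
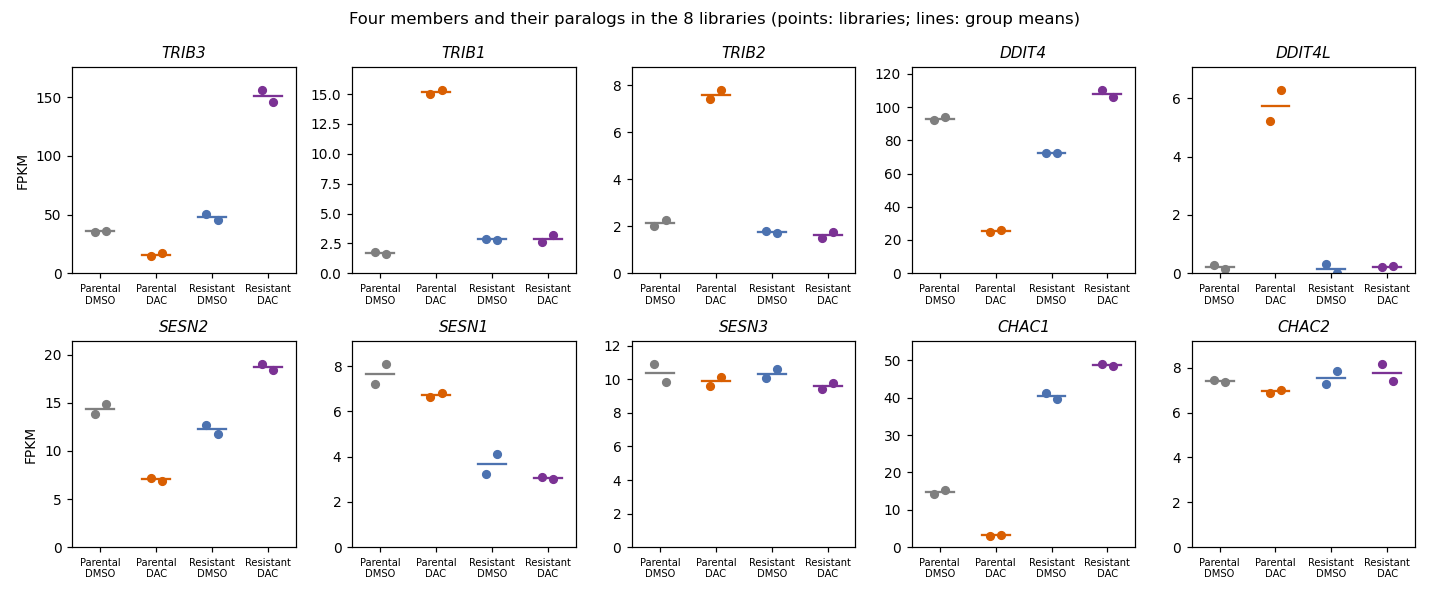
Level in FPKM (vertical axis, linear and from 0, own scale per panel) of TRIB3, DDIT4, SESN2 and CHAC1 and of their paralogs in the 4 groups (horizontal axis); points are libraries and lines group means. TRIB1, TRIB2 and DDIT4L are highest in parental DAC cells, at 15.0 and 15.3, 7.42 and 7.78, and 5.22 and 6.27 FPKM, the group in which TRIB3, DDIT4, SESN2 and CHAC1 are lowest.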

How the data were processed

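The authors deposited FPKM values multiplied by 1000 for 60664 genes in 8 libraries. Per the study's methods and processing notes, reads of mRNA libraries (KAPA mRNA HyperPrep) were trimmed with Cutadapt 1.9.1, aligned to hg38 with Hisat2 2.1.0 and counted with HTSeq 0.13.5 on Ensembl genes. Use of strand in the counting is not given in the sources used here.

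Values were divided by 1000, and log2(FPKM + 1) was fitted by limma 3.58.1 (R 4.3.3) for the 14899 genes that reached 1 FPKM in 2 or more libraries, with a mean for each of the 4 groups and a variance trend. The fit was tested on simulated data. Reads were recovered from the steps between values with GENCODE lengths, and at least 87.2% of values per library came out whole within 0.02 reads. These reads give the depth and were the input of voom. For ATF3 the length was solved from its own 8 values. No 2 libraries of a group held the same values.

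The members and lists were chosen with earlier results of these data known. Named genes are the members, per list and comparison at most the 4 called genes of largest size and those called in several comparisons, the 5 nearest profiles, and neighbours of members. Cell type markers were named after their values were seen, and any other gene outside this rule is marked. Tried besides were another pseudocount, no filter, a mean of 5 FPKM, TPM, quantile and upper-quartile scaling, a replicate block, the compared libraries only, adjusted p-values, voom and leaving out each library.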

Additional observations from a re-analysis of the deposited data

Results flagged for a closer look

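In 8 members both parental DAC libraries lay below both parental DMSO libraries and both resistant DAC libraries above both resistant DMSO libraries, so that the 2 cell populations moved in opposite directions. The difference was not tested, since the set was chosen for it. The DAC response of resistant cells minus that of parental cells, on the log2(FPKM + 1) scale, was 3.04 for INHBE, 2.76 for TRIB3, 2.50 for ATF5 and 2.41 for DDIT4. It was 2.20 for CHAC1, 1.51 for SESN2, 1.20 for ATF4 and 1.08 for ASNS. The same opposite pattern, in either direction and again not tested, was seen in 63 of the 113 list genes tested (55.8%), of which 43 were lower with DAC in parental cells, and in 27.1% of all genes tested.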

How the results depend on the processing

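With 2 libraries per group, precision rests on the spread shared across genes, and ATF3, ASNS and parental DAC INHBE rest on few reads. Of 708 values of member fold changes under the alternatives, 680 kept their direction and side of the threshold, 17 passed the threshold where the reported value did not (all with DAC in parental cells or, for 3 of ASNS, between populations in DAC: ATF4 1, ATF3 5, SESN2 5 and ASNS 6), 11 (all of INHBE) moved by more than the spread between replicates and 0 reversed. The count of members called higher with DAC in parental cells went from 0 to 1 (ATF3) with a pseudocount of 0.1, with TPM and with voom, and ranged from 0 to 1 when 1 library was left out, being 1 without parental DMSO replicate 2 or parental DAC replicate 1. The cause was not tested. The INHBE difference of DAC effects was 3.59 with a pseudocount of 0.1, 3.50 with TPM, 3.21 with quantile normalization and 3.67 with voom, and 2.88 to 3.19 when 1 library was left out, at these ends without parental DAC replicate 2 and replicate 1. Other counts of members called stayed within 1.5 times. The replicate numbers did not pair the libraries (correlations of deviations between groups of -0.022 to 0.02), and with a replicate block the INHBE difference was 3.04 and the members called with DAC in parental cells were 4 lower and 0 higher. Of 648 list counts 598 stayed within 1.5 times.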
